A study of Macaca mulatta with 45 samples.

Results

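Visceral fat was set against subcutaneous fat in rhesus monkeys that had eaten a high-fat, high-sucrose (HFS) diet with resveratrol, a plant polyphenol, for 24 months. The comparison rests on 8 of the 45 arrays of the series, chosen by their labels: 4 of visceral fat and 4 of subcutaneous fat. All came from adult males of 7 to 13 years. Their diet drew 42% of its energy from fat and held about 27% sucrose by weight, and resveratrol came in a treat before meals, with a daily dose of 80 mg in year 1 that was raised to 480 mg in year 2. Another 4 visceral and 5 subcutaneous arrays at 24 months came from animals on the same diet with a placebo treat, called the HFS group here, and were used to ask whether the depot difference depended on resveratrol. The rest of the series held both depots of animals on a standard diet, with 13% of energy from fat and about 5% sucrose by weight. It also held subcutaneous fat of all arms at baseline. The fit and the counts over the series include these arrays. RNA was hybridised to human bead arrays, so that the fit of a human probe to the monkey sequence sets its signal, and levels were compared for 1 gene between arrays and not between genes. The labels do not say from which site inside the abdomen the visceral fat came. By the animal names in the deposited columns, 1 animal of the resveratrol group gave both depots (replicate 2 of each) and its other 6 arrays came from different animals, while 2 animals of the HFS group gave both.

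Visceral fat lies around the organs of the abdomen and subcutaneous fat beneath the skin. Visceral fat is covered by mesothelium, a sheet of flat cells that expresses keratins and surface proteins such as mesothelin. Adipocytes and their precursors also keep the developmental factors of the part of the body they arose in, so that some transcription factor genes mark a depot throughout life. In many species the depots differ in leptin release and in the uptake and release of fatty acids.

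The visceral arrays showed 15153 to 16839 detected probes (detection p under 0.05), and the subcutaneous arrays 17117 to 18673. Log2 intensities correlated at Pearson r = 0.936 to 0.982 across 23767 probes for the 12 pairs of arrays within a depot, and at 0.881 to 0.939 for the 16 pairs between depots. Visceral replicate 1 stood somewhat apart, with a mean r of 0.950 to the other visceral arrays. Among the deposited intensities, 92 probes are empty on the subcutaneous arrays and filled on the visceral ones, so the depots were written out separately, and depot and array set cannot be told apart. The same holds for the HFS group, whose arrays were other ones. The results below therefore start from genes that were detected in one depot and absent in the other. In these bulk samples, fewer cells of a type and less RNA per cell cannot be told apart.

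The 3 depot markers went with the labels on each of the 8 arrays. ITLN1, which encodes the adipokine omentin, had normalized log2 intensities of 6.83, 7.72, 5.69 and 9.49 on the visceral arrays, against 4.43, 4.30, 4.38 and 4.39 on the subcutaneous arrays. MSLN, the mesothelial surface protein mesothelin, had 7.39, 7.69, 6.26 and 8.72 in visceral fat, against 4.43, 4.37, 4.53 and 4.47 in subcutaneous fat. The subcutaneous values of both genes lay at the background of the arrays, and the groups did not overlap. TBX15, a T-box factor of subcutaneous precursors, ran the other way, with 4.97, 4.75, 4.84 and 4.88 in visceral fat, against 8.35, 7.78, 8.34 and 7.18 in subcutaneous fat. The differences, visceral minus subcutaneous with the standard error of the fit, were 3.06 ± 0.47 for ITLN1 (limma adjusted p = 3.49e-06), 3.06 ± 0.29 for MSLN (adjusted p = 2.1e-10) and -3.05 ± 0.25 for TBX15 (adjusted p = 7.21e-12). In the animal that gave both depots they were 3.42, 3.32 and -3.02. Across the series ITLN1 was detected on 10 of 10 visceral and 0 of 35 subcutaneous arrays. MSLN did not meet both counts, being detected on at least 1 subcutaneous array outside the 4 compared here. TBX15 was detected on 35 of 35 subcutaneous arrays and on 4 of 10 visceral ones. Of these visceral arrays 3 were in the HFS group, 0 in the resveratrol group and the other in the standard diet group. The baseline subcutaneous fat of the resveratrol arm, sampled before treatment, had 4.36 ± 0.02 for ITLN1 and 8.40 ± 0.32 for TBX15 (SD, n = 10).

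**Figure D1:**
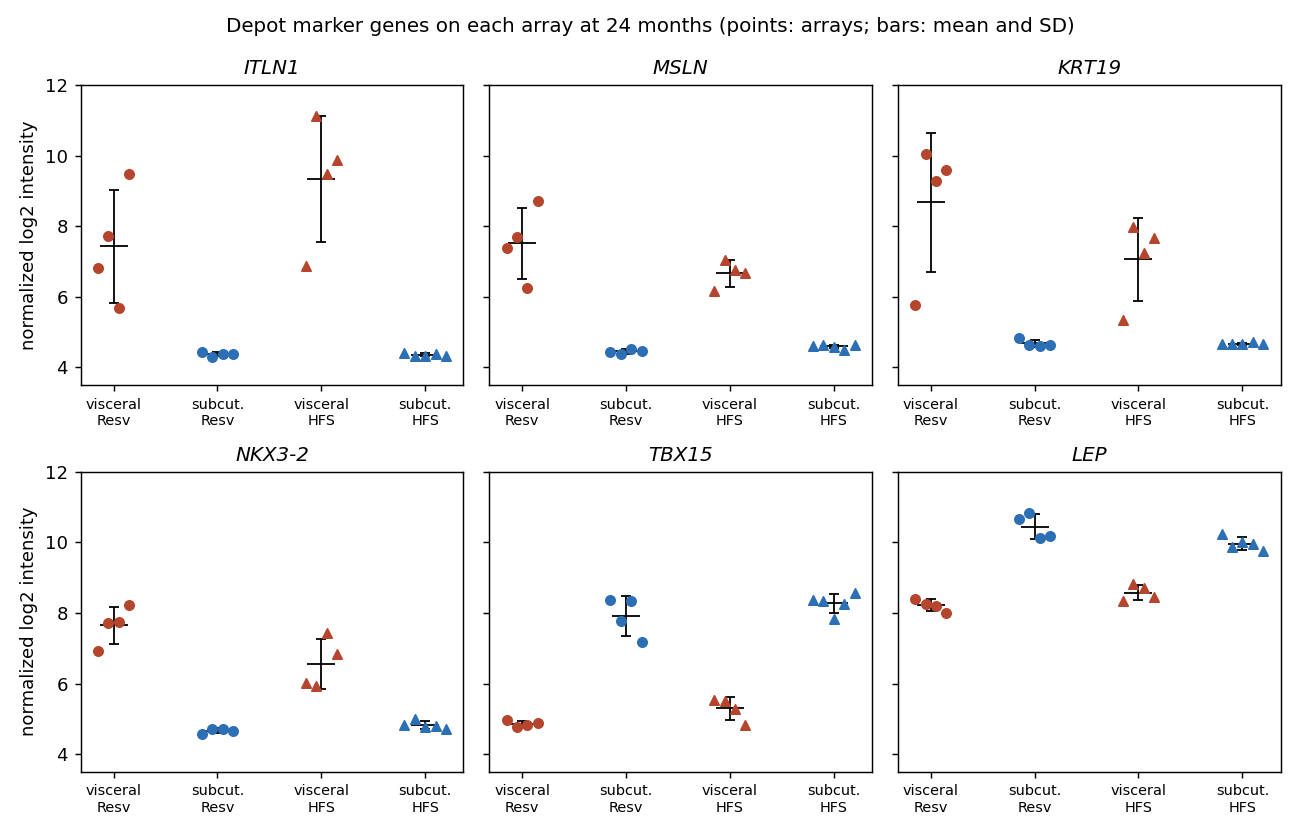
Normalized log2 intensity of 6 genes on each array at 24 months, with visceral fat in red and subcutaneous fat in blue, circles for the resveratrol group, triangles for the HFS group, and bars for the mean and SD. ITLN1, MSLN, KRT19 and NKX3-2 are higher on every visceral array than on the subcutaneous arrays, and TBX15 and LEP lower.

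A gene was counted as detected in visceral fat only when a probe of it had a detection p under 0.01 on 4 of 4 visceral arrays and no probe of it had one under 0.05 on any subcutaneous array of the resveratrol group. This held for 27 genes (0.209% of the 12917 tested). Several of the largest are mesothelial genes. KRT19, a keratin of simple epithelia and mesothelium, had 5.78, 10.05, 9.28 and 9.58 in visceral fat, against 4.84, 4.64, 4.62 and 4.63 in subcutaneous fat. Replicate 1 was the low visceral array, and by the rule the gene was detected there too. The KRT19 difference of 3.99 ± 0.50 corresponds to a mean level at least 13.9-fold higher, a bound taken against the lowest detected signal of each subcutaneous array. Such a bound compares the means of the arrays, and it covers neither single arrays nor sampling error. The same bound was 6.22-fold for MSLN, 5.88-fold for ITLN1, 6.84-fold for WT1, a transcription factor of mesothelium, and 5.5-fold for MUC16, a large mucin of mesothelial surfaces.

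Other genes of that group had various roles. KLK11, a secreted serine protease, and CGN, the tight junction protein cingulin, were at least 9.7-fold and 6.9-fold higher. NKX3-2, a homeobox factor of abdominal and axial mesenchyme, had 6.93, 7.70, 7.75 and 8.21 in visceral fat, against 4.56, 4.71, 4.70 and 4.67 in subcutaneous fat, at least 6.83-fold higher. That the depots lay apart for the genes of this group follows largely from the rule that chose them. ZCCHC12, a transcriptional coactivator, was at least 4.1-fold higher, AURKB, a kinase of chromosome segregation, 3.61-fold, and PLEKHG2, an exchange factor for small GTPases, 3.11-fold. The remaining 4 of the 15 largest were TNNT1, the slow muscle troponin T, NES, the filament protein nestin, LAG3, an inhibitory receptor of T cells, and JOSD2, a deubiquitinase, at least 2.66-fold to 3.14-fold higher. Of the 27 genes, 7 were detected on 4 of 4 visceral and 0 of 5 subcutaneous arrays of the HFS group too, and 25 had the same sign there, 16 of them passing. Of all genes tested, 18.7% passed there in either direction. The 5 genes detected on 10 of 10 visceral and 0 of 35 subcutaneous arrays of the series were KRT19, CGN, ITLN1, ZCCHC12 and BARX1, a homeobox factor of stomach mesenchyme that was named after its values were seen. With 1 array fewer the rule asks for less, and the count of 27 was 74 without visceral replicate 1 and 45 without subcutaneous replicate 2.

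In the other direction, 176 genes (1.36% of those tested) were detected in subcutaneous fat only by the same rule. PCOLCE2, an enhancer of collagen processing, had 4.45, 4.58, 4.38 and 4.56 in visceral fat, against 7.16, 8.36, 7.58 and 9.21 in subcutaneous fat. DUSP1, an immediate early gene whose product dephosphorylates MAP kinases, had 4.56, 4.36, 4.47 and 4.62 in visceral fat, against 6.45, 6.49, 6.96 and 8.39 in subcutaneous fat. SIRT1, the deacetylase often named as a target of resveratrol, had 4.63, 4.56, 4.62 and 4.57 in visceral fat, against 5.97, 7.25, 6.76 and 7.49 in subcutaneous fat. As the rule requires, the visceral values of these 3 genes sat at background. They had hardly any spread there, while the subcutaneous arrays varied, with replicate 4 the highest for each. Visceral levels were at least 8.63-fold lower for PCOLCE2, 4.3-fold lower for DUSP1 and 3.73-fold lower for SIRT1.

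TBX15 was at least 7.7-fold lower in visceral fat. Among the further genes of the 15 largest were NHLRC3 (at least 9.13-fold lower, with a second probe at -0.91), the motor protein gene MYO5A (7.44-fold), the nuclear import receptor KPNA3 (4.71-fold) and NT5C3A, a nucleotidase of pyrimidine breakdown (4.52-fold, with a second probe at -1.42). ME1, the malic enzyme that supplies NADPH for fat synthesis, was at least 4.78-fold lower, and the Rab regulator TBC1D9 at least 4.66-fold lower. NOC3L of ribosome assembly, the ubiquitin ligase TRIM2, the adhesion gene SLITRK4, the transcription coactivator SUB1 and the ephrin receptor EPHA3 were at least 3.3-fold to 3.94-fold lower. NT5C3A was detected on 0 of 10 visceral and 34 of 35 subcutaneous arrays of the series, TBX15 on 4 of 10 and 35 of 35, and SIRT1 on 1 of 10 and 31 of 35. Of the 176 genes, 25 were detected on 0 of 4 visceral and 5 of 5 subcutaneous arrays in the HFS group. There 163 had the same sign, 29 of them passing. The 18.7% of all genes that passed there counts both directions, so it is no like-for-like share for these genes. The median difference of the 176 genes was -1.22 in the resveratrol group, whose values chose them, and -0.37 in the HFS group. The subcutaneous arrays of the resveratrol group had 17766 ± 759 probes detected, against 16012 ± 272 on the HFS subcutaneous arrays (SD, n = 4 and 5), and the part of this in the count was not tested.

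**Figure D2:**
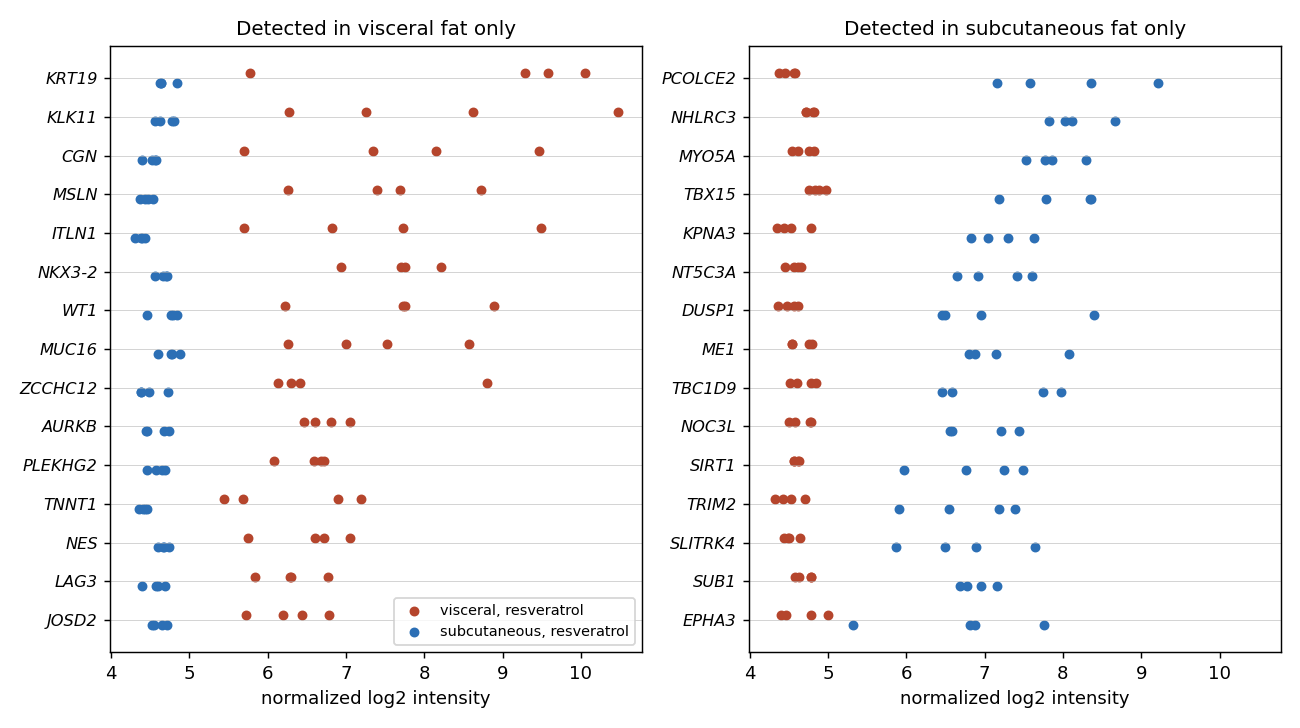
Normalized log2 intensity on the 4 visceral (red) and 4 subcutaneous (blue) arrays of the resveratrol group for the 15 genes with the largest difference among those detected in visceral fat only (left) and in subcutaneous fat only (right). The rule that chose these genes asks for detection in one depot and none in the other. That arrays bunch at background in the other depot, and that the depots do not overlap, follows largely from it.

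Across all genes, 4629 of 12917 (35.8%) passed limma's test at an adjusted p under 0.05, 2592 (20.1%) higher and 2037 (15.8%) lower in visceral fat, and the median difference of all genes was 0.06. The visceral and subcutaneous arrays did not overlap for 4513 genes (34.9%). With median scaling in place of quantile normalization 1352 were higher and 1975 lower, and with each depot normalized separately 2118 and 2478, so the balance of directions depends on the scaling. A count within a gene list has to be read against these shares. Neither share was exceeded by the lists of adipocyte identity, macrophage, insulin signalling and interferon response genes, among others. In the HFS group 2421 genes (18.7%) passed the same test.

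Developmental patterning factors differed in both directions. Of 21 tested, 8 rose in visceral fat, 4 fell and 9 did not pass, with a median of 0.02. TCF21, a factor of visceral mesoderm, had 7.88, 7.49, 7.63 and 8.49 in visceral fat, against 4.54, 5.02, 4.76 and 4.76 in subcutaneous fat, a difference of 3.10 ± 0.17 (adjusted p = 3.58e-17). ISL1, a LIM homeobox factor of mesodermal progenitors, had 7.76, 7.37, 7.96 and 8.99, against 4.86, 4.59, 4.69 and 5.04 in subcutaneous fat. Both were detected on 4 visceral arrays and on 1 subcutaneous array, and neither overlapped. PRRX1, a homeobox factor of limb and body wall mesenchyme, had 5.80, 5.49, 5.05 and 5.62 in visceral fat, against 8.14, 9.87, 9.21 and 9.82 in subcutaneous fat (-3.77 ± 0.48, adjusted p = 9.5e-08). A second probe of TCF21 and of PRRX1 differed less, by 0.28 and -0.32.

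HOX genes, which set position along the body axis, had 9 members higher in visceral fat, 1 lower and 8 not passing of 18, with a median of 0.50. HOXB8 was the most different, at 9.23, 8.44, 8.63 and 8.64 in visceral fat and 4.92, 5.39, 4.90 and 5.10 in subcutaneous fat (3.66 ± 0.38, adjusted p = 1.31e-09). Its neighbours in the cluster went the same way, with 2.39 ± 0.36 for HOXB5 and 1.61 ± 0.33 for HOXB7, as did HOXA2 with 1.63 ± 0.27 and HOXC5 with 0.67 ± 0.14. HOXC8 was the 1 that fell, with 6.82 ± 0.45 in visceral fat and 8.92 ± 0.54 in subcutaneous fat (SD, n = 4 each, -2.10 ± 0.39, adjusted p = 4.75e-05). In the HFS group the depot difference was 3.18 for HOXB8 and -2.52 for HOXC8.

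Of 16 mesothelial markers, 10 rose in visceral fat and 0 fell, with a median of 1.34 against 0.06 over all genes. Their median level on an array ran from 5.45 to 8.42 in visceral fat and from 4.60 to 4.75 in subcutaneous fat, and 10 of the 16 were undetected on all 4 subcutaneous arrays, against 1 on all 4 visceral arrays. A marker was tested only if it was detected on enough arrays of some group. Listed markers detected in neither depot, such as UPK1B, were left out. A tested marker absent from these subcutaneous arrays thus had to be detected in another group, and the low visceral count follows in part from this. The part of mesothelial RNA in the other visceral differences was not tested. RSPO1, a secreted Wnt enhancer, had 6.99, 7.09, 6.88 and 8.33 in visceral fat, against 4.45, 4.72, 5.09 and 4.38 in subcutaneous fat. The desmosome gene DSP, listed here with skin markers and also expressed by mesothelium, was higher by 2.84 ± 0.72 (adjusted p = 0.00183), in visceral replicate 4 most of all. A second DSP probe was at 0.04.

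Of 13 endothelial markers, 7 were higher and 2 lower in visceral fat (median 0.77), and of 14 smooth muscle and pericyte markers 7 were higher and 0 lower (median 1.28). The median endothelial level on an array was 8.64 to 9.53 in visceral and 6.98 to 7.65 in subcutaneous fat, and that of smooth muscle and pericyte markers 7.49 to 8.66 and 5.72 to 6.52, and their part in other differences was not tested. CLDN5, a tight junction protein of endothelium, had 8.90, 9.05, 8.89 and 9.53 in visceral fat, against 6.92, 7.04, 6.38 and 6.72 in subcutaneous fat. EGFL7, an angiogenic factor, was higher by 2.02 ± 0.38, and SOX18 and CDH5, a transcription factor and a cadherin of endothelium, by 1.92 ± 0.46 and 1.54 ± 0.45. The junction protein ESAM was higher by 1.37 ± 0.41. These are higher members of the endothelial list, and the 2 lower ones are not among them. Of the 13 markers 2 were undetected on all 4 visceral arrays, against 0 on all 4 subcutaneous arrays. Smoothelin (SMTN) had 8.28, 8.43, 8.16 and 8.58 in visceral fat and 5.84, 5.75, 5.75 and 6.04 in subcutaneous fat, a difference of 2.52 ± 0.50 (adjusted p = 0.000138), while another of its probes was at 0.22. LMOD1 and KCNMB1, of the contractile apparatus and its potassium channel, were higher by 1.70 ± 0.41 and 1.94 ± 0.56, both highest on visceral replicate 1. FOXS1, of perivascular cells, was higher by 0.75 ± 0.21. Of 5 lymphatic endothelial markers 1 was higher, 1 lower and 3 did not pass (median 0.30), so the list had no common direction. LYVE1, a receptor of lymphatic endothelium and of some macrophages, fell by 2.80 ± 0.48 (adjusted p = 1.86e-05), with 4.95 ± 0.22 in visceral fat and 7.75 ± 0.66 in subcutaneous fat.

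Of 18 macrophage markers 2 were higher and 0 lower in visceral fat (median 0.46, with array medians of 7.86 to 10.15 in visceral and 7.92 to 8.52 in subcutaneous fat), among them SPI1, the master factor of myeloid cells, at 1.08 ± 0.38 (adjusted p = 0.022). SPI1 was at 4.52 on visceral replicate 1 and at 6.97, 8.0 and 6.41 on the other visceral arrays, and it no longer passed without visceral replicate 2 or 3 or subcutaneous replicate 2 or 3 (0.92, 0.57, 1.01 and 1.03). Of 14 T and NK cell markers 4 were higher and 0 lower (median 0.52). They included GNLY, a cytolytic granule protein, at 1.57 ± 0.33, and CD2, a T cell adhesion receptor, at 0.97 ± 0.27. LTB, a cytokine of lymphoid tissue, was higher by 1.67 ± 0.40, and FCGR3B, in humans an Fc receptor of neutrophils, by 1.34 ± 0.27. The MHC class II genes CD74 and HLA-DPA1 were higher by 1.84 ± 0.53 and 1.25 ± 0.36. Of the 10 genes of that list 3 were higher and 0 lower. A second probe of CD74 was at -0.51, and with the mean of its probes CD74 no longer passed (0.66). Of 4 mast cell markers 0 were higher and 2 lower. CPA3, a mast cell protease, had 6.64 ± 1.06 in visceral fat and 8.76 ± 0.42 in subcutaneous fat, and HDC, which makes histamine, was detected in subcutaneous fat only (at least 1.27-fold lower in visceral fat). Of 7 erythroid markers 0 passed.

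**Figure D3:**
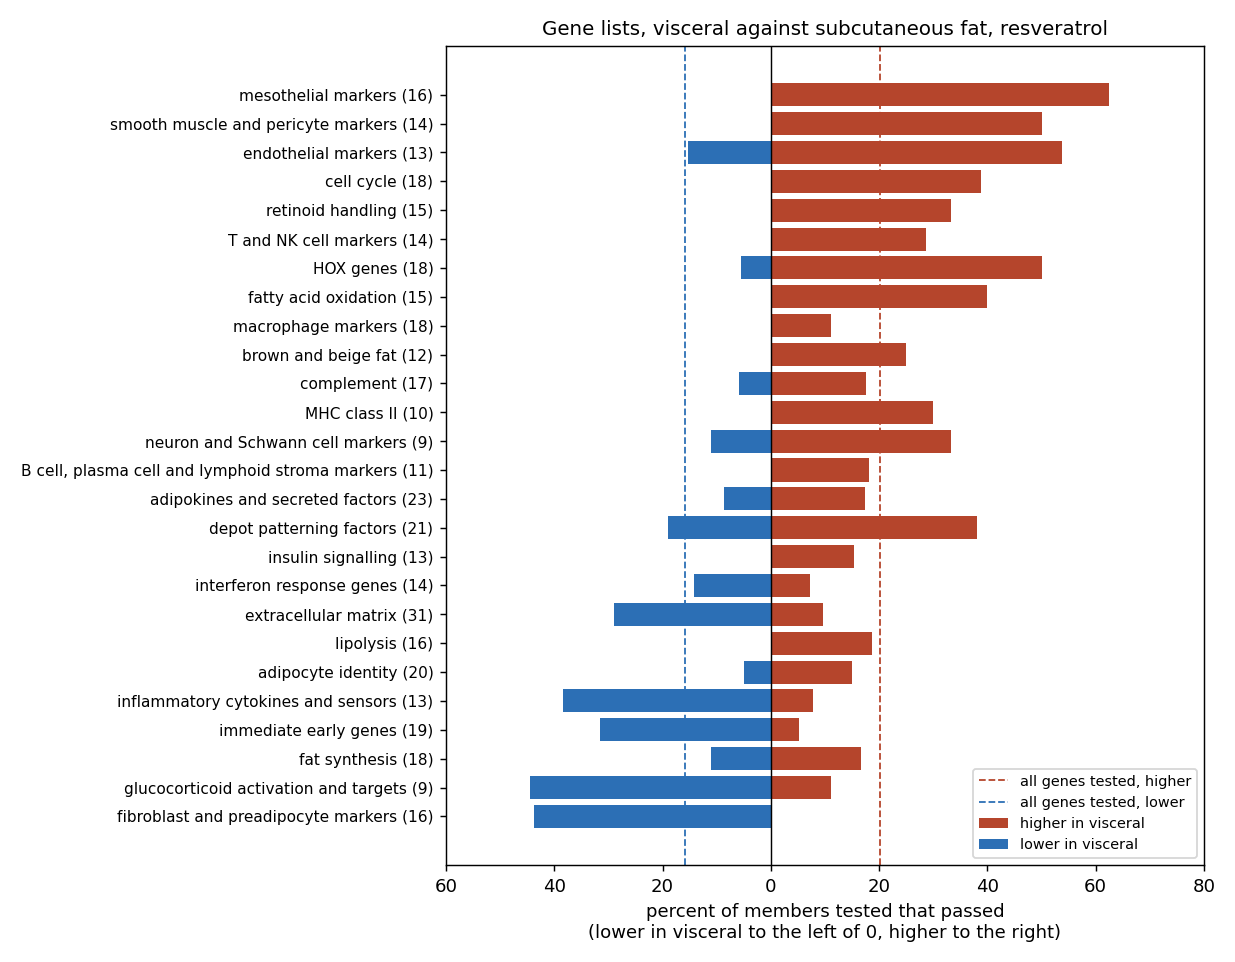
Share of the tested members of each gene list that were higher (red, to the right) or lower (blue, to the left) in visceral than in subcutaneous fat of the resveratrol group, for lists with 9 or more genes tested (number in brackets), ordered by median difference. Dashed lines mark the shares over all genes, 20.1% higher and 15.8% lower. Mesothelial markers stand at the top with 10 of 16 higher, and fibroblast and preadipocyte markers at the bottom with 7 of 16 lower.

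Of 20 adipocyte identity genes 3 were higher in visceral fat, 1 lower and 16 did not pass. LEP, the adipocyte hormone that signals fat stores, had 8.40, 8.26, 8.21 and 8.0 in visceral fat, against 10.67, 10.83, 10.11 and 10.16 in subcutaneous fat, and fell by 2.23 ± 0.22 (adjusted p = 6.9e-10). Its depot difference in the HFS group was -1.39. PPARG, the nuclear receptor that builds adipocytes, was bright in both depots, with 11.72 ± 0.74 in visceral and 11.91 ± 0.24 in subcutaneous fat, and did not pass (-0.19 ± 0.29, adjusted p = 0.667). CEBPA, its partner factor, was higher by 1.22 ± 0.27. The human probe of ADIPOQ, for adiponectin, gave nearly no signal in these monkeys (detected on 2 of 4 visceral and 0 of 4 subcutaneous arrays), so it says nothing of adiponectin here. Of 23 adipokines and secreted factors 4 were higher and 2 lower, both shares below those of all genes. Among these secreted factors AGT, the precursor of angiotensin, was higher by 1.74 ± 0.38, and CHRDL1, a BMP antagonist, lower at -0.79 ± 0.19. RBP4, a retinol carrier, did not pass (-0.51 ± 0.45, adjusted p = 0.406).

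Of 16 lipolysis genes 3 were higher in visceral fat and 0 lower, a share near the 20.1% of all genes. PNPLA2, the lipase of the first step of lipolysis, had 10.79, 10.03, 10.10 and 10.28 in visceral fat, against 9.42, 7.53, 8.22 and 8.55 in subcutaneous fat (1.87 ± 0.52, adjusted p = 0.00408). LIPE and MGLL, the lipases of the next steps, were higher by 1.88 ± 0.57 and 1.70 ± 0.39. With only the 8 arrays of the 2 groups another MGLL probe was the brightest, and the difference was 0.27 and did not pass. The other 13 genes did not pass, and the median of the list was -0.12. Of 15 fatty acid oxidation genes 6 were higher and 0 lower (median 0.46). UCP2, a carrier of the inner mitochondrial membrane, had 11.30 ± 1.19 in visceral fat and 8.90 ± 0.44 in subcutaneous fat, with visceral replicate 1 close to the subcutaneous arrays at 9.68. ACADVL, which opens the oxidation of long chains, was higher by 1.09 ± 0.31, but another of its probes was at -0.68 and the mean of its probes did not pass (0.14). Of 12 brown and beige fat genes 3 were higher, 0 lower and 9 did not pass (median 0.43), beside 20.1% of all genes higher. KCNK3, a potassium channel of brown adipocytes, was higher by 1.48 ± 0.40. UCP1, the heat-producing carrier of brown fat, had 4.64, 5.67, 5.04 and 6.69 in visceral fat, against 4.86, 4.60, 4.69 and 4.97 in subcutaneous fat (0.73 ± 0.21, adjusted p = 0.00644), and did not pass without visceral replicate 4 (0.34).

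Fat synthesis genes had 3 higher, 2 lower and 13 not passing of 18 (median -0.43), both shares below those of all genes. ELOVL5, an elongase of polyunsaturated fatty acids, had 9.18, 7.46, 6.75 and 6.97 in visceral fat, against 10.99, 10.92, 11.04 and 11.22 in subcutaneous fat, and fell by 3.45 ± 0.96 (adjusted p = 0.00439). ME1, described above, was the other gene that fell. DGAT1, which closes triglyceride synthesis, was higher by 1.36 ± 0.39.

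Fibroblast and preadipocyte markers formed the list with the lowest median, at -0.80, with 0 higher, 7 lower and 9 not passing of 16. Their median level on an array was 7.69 to 8.60 in visceral fat and 9.26 to 10.10 in subcutaneous fat, and the part of fibroblast RNA in the matrix genes was not tested. DPP4, a surface protease of early adipocyte progenitors, had 6.06, 5.46, 4.79 and 6.39 in visceral fat, against 8.72, 9.29, 8.79 and 9.75 in subcutaneous fat. MFAP5, a microfibril protein, had 9.89 ± 0.56 in visceral and 13.29 ± 0.73 in subcutaneous fat. EBF1, a factor of adipocyte precursors, fell by 1.82 ± 0.25 (adjusted p = 4.73e-07), and PDGFRA, the growth factor receptor of fibroblasts, by 1.39 ± 0.32. CD55, a complement inhibitor on progenitors, was detected on 0 visceral and 3 subcutaneous arrays (-1.02 ± 0.15).

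Matrix genes had 3 higher, 9 lower and 19 not passing of 31, with a median of -0.08. LUM, the collagen-binding proteoglycan lumican, had 5.69, 5.16, 5.19 and 5.49 in visceral fat, against 8.27, 9.93, 9.79 and 10.00 in subcutaneous fat, and fell by 4.11 ± 0.56 (adjusted p = 3.84e-07). COL3A1, the collagen III chain, fell by 3.81 ± 0.52, SPARC, a matrix adaptor, by 3.52 ± 0.57, and COL5A2, a collagen V chain, by 1.73 ± 0.44. TIMP2, an inhibitor of matrix proteases, and FBN1, the microfibril protein fibrillin, fell by 1.64 ± 0.24 and 1.57 ± 0.38. A second TIMP2 probe was at -0.02. In the HFS group COL3A1 was at -1.92 and LUM at -1.55, while the median of the whole list was -0.56 there.

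Retinoid genes rose where they passed, with 5 higher, 0 lower and 10 not passing of 15 (median 0.54). ALDH1A2, an enzyme that makes retinoic acid and is strong in mesothelium, had 9.61, 11.18, 11.17 and 11.36 in visceral fat, against 7.33, 7.55, 7.14 and 6.44 in subcutaneous fat (3.72 ± 0.51, adjusted p = 4.01e-07). RARRES1, induced by retinoic acid, was higher by 2.75 ± 0.73, ALDH1A3 by 1.24 ± 0.36 and the retinol receptor STRA6 by 0.69 ± 0.16. ALDH1A3 did not pass with only the 8 arrays (adjusted p = 0.056). Of 17 complement genes 3 were higher and 1 lower (median 0.42), both shares below those of all genes. C3, the central complement component, had 8.68, 10.64, 10.38 and 12.01 in visceral fat, against 6.48, 5.79, 7.35 and 7.97 in subcutaneous fat (3.53 ± 0.96, adjusted p = 0.00354). A second C3 probe was at 0.62. CFI, a protease that inactivates C3b, was higher by 1.16 ± 0.24.

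Of 19 immediate early genes, a class that sampling of tissue can also induce, 6 were lower in visceral fat and 1 higher, with a median of -0.32. KLF6 and KLF4, stress-induced zinc finger factors, fell by 1.48 ± 0.24 and 2.07 ± 0.48, and the nuclear receptor NR4A2 by 2.03 ± 0.45. JUNB, of the AP-1 complex, ran the other way at 2.02 ± 0.56. Of 13 inflammatory genes 1 was higher and 5 lower (median -0.26). PTGS2, the inducible prostaglandin synthase, fell by 1.64 ± 0.38, and TLR2, a receptor for bacterial lipoproteins, by 0.49 ± 0.12. The cytokines IL6 and CCL2 did not pass (0.13 ± 0.55 and -0.25 ± 0.78), and their arrays overlapped. CCL2 was at 6.17 on visceral replicate 1 and at 9.31 to 10.15 on the other visceral arrays, and its difference was 0.63 without that replicate. Of 14 interferon response genes 1 was higher, 2 were lower and 11 did not pass. Among them MX1 fell by 2.38 ± 0.42 and OASL rose by 0.86 ± 0.21.

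Of 13 insulin signalling genes 2 were higher and 0 lower, with a median of -0.05. AKT1, the kinase at the core of the pathway, was at 1.03 ± 0.35 (adjusted p = 0.019), with another probe at -0.87. It no longer passed without visceral replicate 2 (0.93) or subcutaneous replicate 2 or 3 (0.93 and 0.91). With the other alternatives counted, AKT1 missed the threshold in 5 of 21. Over all 21 its difference ran from 0.52 to 1.39, and limma's adjusted p reached 0.154. PTPN1, a phosphatase that ends insulin signals, was at 0.59 ± 0.23 (adjusted p = 0.0393), and passed in 3 of the 8 fits that left out an array, those without visceral replicate 1 and subcutaneous replicates 1 and 3. It also missed the threshold in 8 of the 13 other alternatives, at 0.34 to 0.59. The adaptor IRS1 was at 0.65 ± 0.32 (adjusted p = 0.114, or 0.0488 without visceral replicate 3), and the glucose transporter SLC2A4 at 0.25 ± 0.19 (adjusted p = 0.333). SLC2A4 was tested in only 6 of the 8 fits that left out an array and missed the detection filter in the others, so it lay near that filter. Of 9 genes of glucocorticoid action 1 was higher and 4 lower. FKBP5, a chaperone that glucocorticoids induce, had 8.36, 8.05, 7.89 and 7.80 in visceral fat, against 9.43, 10.04, 9.84 and 9.26 in subcutaneous fat. The receptor NR3C1 fell by 1.20 ± 0.26 and its target KLF9 by 1.003 ± 0.25, while H6PD, which supplies NADPH to the cortisol-forming enzyme, rose by 1.49 ± 0.34. HSD11B1, that enzyme, did not pass (-0.75 ± 0.99, adjusted p = 0.6). Cell cycle genes had 7 higher, 0 lower and 11 not passing of 18 (median 0.76). The mitotic activator CDC20 was higher by 2.16 ± 0.39 and the replication helicase subunits MCM5 and MCM3 by 1.57 ± 0.33 and 1.07 ± 0.24. AURKA and CCNA2, a mitotic kinase and a cyclin, were higher by 1.21 ± 0.29 and 1.17 ± 0.30.

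The last comparison asked whether the depot difference itself differed between the resveratrol and the HFS group. Of 12917 genes, 349 (2.7%) passed, 135 (1.05%) above 0 and 214 (1.66%) below 0, where above 0 means a more positive visceral minus subcutaneous difference with resveratrol. TBX15 was at -0.08 ± 0.34 (adjusted p = 0.935) and ITLN1 at -1.93 ± 0.65 (adjusted p = 0.0975). DUSP1 had one of the clearest differences. Its depot difference was -2.57 with resveratrol and -0.42 on HFS (-2.15 ± 0.36, adjusted p = 0.000632), and it passed in 17 of 17 fits that left out an array. On HFS it had 4.41, 4.42, 4.55 and 4.82 in visceral fat and 4.84, 5.35, 4.98, 4.96 and 4.69 in subcutaneous fat, so that the higher level with resveratrol lay in subcutaneous fat. SIRT1 did not pass (-1.37 ± 0.61, adjusted p = 0.208), at a depot difference of -2.27 with resveratrol and -0.90 on HFS.

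PLEKHG2 (1.92 with resveratrol, 0.64 on HFS), TCF21 (3.10 and 4.26) and CD55 (-1.02 and 0.04) also passed in 17 of 17 such fits, at adjusted p = 0.00385, 0.00484 and 0.00242. NKX3-2 was at 2.99 with resveratrol and 1.73 on HFS (adjusted p = 0.0246, passing in 11 of 17 fits), and HOXB3, named after its values were seen, at 1.47 and -0.40 (12 of 17). CEBPA was at 1.22 and -0.27 (13 of 17), CLDN5 at 2.33 and -0.14 (6 of 17) and the muscle filament gene DES at 1.86 and -0.15 (14 of 17). DES was detected on 0 of 4 visceral HFS arrays, against 4 of 4 with resveratrol.

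The 5 largest values above 0 were those of COL6A2, a collagen VI chain, at 4.40 ± 1.26, the 28S ribosomal RNA gene RNA28SN5 at 3.62 ± 0.90, the proteasome subunit PSMC4 at 3.00 ± 0.82, MXRA7 at 2.96 ± 0.83 and FAAP100, of the Fanconi anaemia DNA repair complex, at 2.84 ± 0.75. COL6A2 had 6.99, 10.02, 9.89 and 10.22 in visceral and 5.48, 6.20, 6.73 and 7.10 in subcutaneous fat with resveratrol, against 5.20, 4.43, 6.33 and 5.02 in visceral and 5.20, 7.00, 9.43, 6.63 and 5.42 in subcutaneous fat on HFS. It passed in 4 of 17 fits that left out an array, RNA28SN5 in 14, PSMC4 in 7, MXRA7 in 5 and FAAP100 in 7. The mean of the probes did not pass for COL6A2 (2.14) or MXRA7 (0.65). The 5 largest below 0 were those of ACBD3, a Golgi scaffold, at -2.62 ± 0.73, PCOLCE2 at -2.58 ± 0.69, the actin regulator KANK1 at -2.54 ± 0.67, catalase (CAT), which breaks down hydrogen peroxide, at -2.31 ± 0.57, and DUSP1. They passed in 8, 8, 9 and 13 of 17 fits for the first 4. The count of 349 was 926 without visceral resveratrol replicate 1, and 153, 109 and 177 without replicates 2, 3 and 4. It was 151 and 130 without subcutaneous resveratrol replicates 2 and 4, 210 and 127 without visceral HFS replicates 1 and 2, and 180 and 187 without subcutaneous HFS replicates 3 and 4. With median scaling, which moved the median of all genes to -0.24, 67 lay above and 343 below 0, and with the deposited scores 143 and 373. The balance was the other way with probes detected as a covariate (381 above, 259 below) and without visceral resveratrol replicate 1 (507 and 419), and close to even with array weights (1008 and 1005) and with the replicate block (365 and 363).

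**Figure D4:**
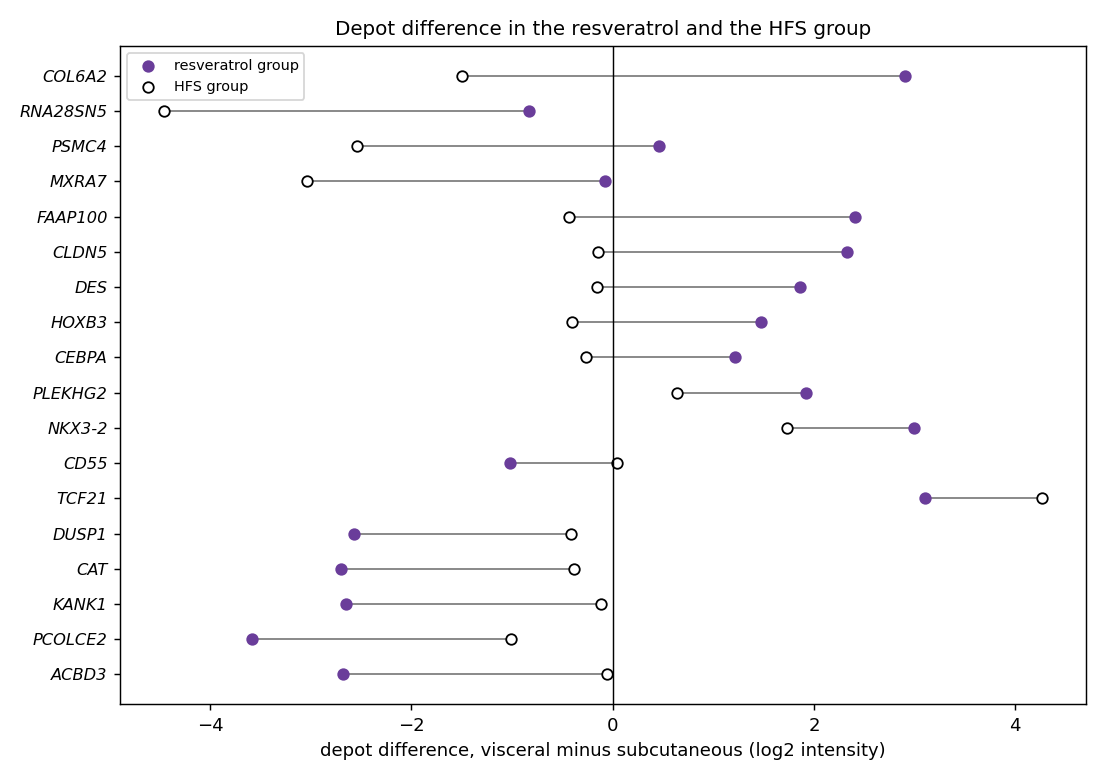
Depot difference (visceral minus subcutaneous, log2 intensity) of 18 genes in the resveratrol group (filled) and in the HFS group (open), ordered by the difference between the groups. COL6A2 lies at 2.91 with resveratrol and at -1.49 on HFS, and DUSP1 at -2.57 and -0.42.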

How the data were processed

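The authors deposited a bead array intensity for each of 47323 probes and, per the file headers, a detection p-value beside it. GenomeStudio 1.9.0 is named in the submitters' processing notes. A second deposited table holds a score per probe, the log intensity centred and scaled per array. From 47231 probes complete on all 45 arrays (92 were empty on the subcutaneous arrays), intensities were normalized by neqc (limma 3.58.1, R 4.3.3, offset 16). GEO's platform annotation gave 1 symbol to 30113 probes, several to 8 and none to 17110. Probes detected at p under 0.05 on at least 50% of the arrays of a group were kept, and the brightest probe stood for its gene. One fit of 9 group means (36 residual degrees of freedom) was tested with eBayes with trend, two-sided, adjusted by Benjamini-Hochberg over 12917 genes. The fit and its 2 contrasts were tested on simulated data. For 3160 genes several probes were kept, and 126 of these had probes of opposite sign past 0.5. Standard errors are of the fit, and the number of arrays limits precision. Bounds on fold compare the means of the arrays, with the lowest detected signal per array for the depot called absent, and leave out sampling error.

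Named genes are the 3 markers, the 15 largest of each one-depot class, up to 6 members per list with the smallest p, the 5 largest differences between groups in each direction, and 11 genes of fat biology. The members and lists were chosen with earlier results of these data known. Replicate 2 is 1 animal in both depots, but numbers 1, 3 and 4 are different animals, so the numbers were not taken as pairs. Residuals of arrays numbered 1 to 4 correlated between depots at 0.0548, 0.108, 0.0729 and 0.198. Each array of a group came from a different animal. The p-values rest on the spread within all 9 groups of the fit, baseline groups included, and not within the compared groups alone. The baseline arrays were uneven, with median signals of 54.34 to 91.9 in the resveratrol arm. For NHLRC3 the SD was 0.06 in visceral fat, 0.36 in subcutaneous fat and 1.53 at baseline in that arm. Its standard error in the fit was 0.81.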

Additional observations from a re-analysis of the deposited data

Results flagged for a closer look

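In 260 groups of 4 arrays of the resveratrol group, 1 array stood apart from the other 3 in 17 by Dixon's test. Chance alone would set apart about 1 in 20 groups.

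Visceral replicate 1 was the array apart in 5 of them. It was highest for AGT (7.87, the others 6.06 to 6.35), CHRDL1 (4.57, the others 4.36 to 4.37, at background) and GNLY (7.79, the others 6.20 to 6.45), and lowest for ALDH1A2 (9.61, the others 11.17 to 11.36) and COL6A2 (6.99, the others 9.89 to 10.22). Visceral replicate 4 was highest for ZCCHC12 (8.80, the others 6.13 to 6.42) and RSPO1 (8.33, the others 6.88 to 7.09). Visceral replicate 3 was lowest for IRS1 (6.78, the others 7.57 to 7.72).

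In subcutaneous fat, replicate 4 was highest for CHRDL1 (5.62, the others 5.02 to 5.12), TIMP2 (13.00, the others 11.86 to 11.98), CPA3 (9.39, the others 8.45 to 8.60) and KANK1 (9.87, the others 8.59 to 8.69). Replicate 1 was lowest for LUM (8.27, the others 9.79 to 10.00) and PTGS2 (5.29, the others 6.99 to 7.34), and highest for MCM5 (6.30, the others 5.83 to 5.87) and KRT19 (4.84, the others 4.62 to 4.64, at background). Replicate 3 was highest for DES (5.64, the others 4.52 to 4.68).

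The depot difference of 18 named genes differed between the resveratrol and the HFS group by limma's test of that difference. The values, resveratrol minus HFS, were positive for COL6A2 (4.40), RNA28SN5 (3.62), PSMC4 (3.00), MXRA7 (2.96), FAAP100 (2.84), CLDN5 (2.47), DES (2.01), HOXB3 (1.87), CEBPA (1.49), PLEKHG2 (1.28) and NKX3-2 (1.26). They were negative for ACBD3 (-2.62), PCOLCE2 (-2.58), KANK1 (-2.54), CAT (-2.31), DUSP1 (-2.15), TCF21 (-1.16) and CD55 (-1.07).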

How the results depend on the processing

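Alternatives changed the normalization, the filter, the probes, the arrays in the fit, the covariates, the weights and, 1 at a time, the arrays. The count of 4629 genes ranged from 3830 to 4547 without 1 array and was 229 when differences were tested against at least 1, a stricter test by construction. The count of 349 genes for the difference between the resveratrol and the HFS group ranged from 109 to 926 without 1 array. It was 651 in a fit of the compared groups alone, 728 in that fit with a replicate block, 640 with probes detected as a covariate and 2013 with array weights, and the cause was not tested. The replicate block gave 4667 for the depot comparison, against 4704 in the same fit without it, and animal as a random block 4699. MGLL, UCP1 and PTPN1 (0.27, 0.73 and 0.59) and, between the groups, NKX3-2 (1.26) did not pass in the fit of the compared groups alone, with or without the block. TCF21 and CD55 (-1.13 and -1.06) passed there without the block and not with it. Genes detected in visceral fat only were 62 and 66 when the 2 detection thresholds were both 0.05 or both 0.01, and 28 to 74 without 1 array. Genes detected in subcutaneous fat only were 307 and 316, and 178 to 226. Of 117 named genes that passed in the depot comparison, 100 kept their sign and their call under the alternatives run for them. In the depot comparison, signs turned for IL6 (-0.25 to 0.72 without 1 array), CCL2 (0.42 with the covariate, 0.19 with array weights, -0.69 to 0.63 without 1 array), PPARG (-0.53 to 0.048 without 1 array) and MXRA7 (0.67 with the covariate, 0.40 with array weights, -0.28 to 0.39 without 1 array), of which 0 passed in the fit reported. Signal over background limits every gene called absent to a bound.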
